A study of Rattus norvegicus with 60 samples.

Results

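The genes described here mark endothelial cells, the cells that line blood vessels. They were taken by name from the deposited table of gene counts. Of 10 names listed, 9 had a row among the 32545 genes of the table: Kdr, Flt1, Tek, Tie1, Cdh5, Icam2, Emcn, Plvap and Ehd3. Pecam1, the tenth, is not analysed here. All 9 passed the filter on low counts in every comparison. Kidneys of 2 rat strains were compared: the Dahl salt-sensitive strain, here SS, and its NOX4 knockout derivative, here NOX4, whose targeted enzyme produces hydrogen peroxide. Cortex and outer medulla were each sampled in the control state, named LS in the labels, and when 4.0% NaCl had been fed for 7 days, named HS7, or for 21 days, named HS21. That makes 12 groups with 5 libraries apiece, or 60 libraries. The SS background is common to all of them. The knockout allele, sex, age and salt content of the control diet are not given in the sources used here, and nothing says that the 5 libraries of a group came from 5 animals, so p-values measure the spread between these libraries.

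Kidney endothelium is not uniform. Glomerular capillaries filter plasma through open fenestrae, peritubular capillaries and ascending vasa recta have fenestrae closed by diaphragms, and the descending vasa recta have a continuous lining. Vascular endothelial growth factor A, made by podocytes and tubules, keeps these vessels alive through the receptor encoded by Kdr, while Flt1 encodes a second receptor that binds the ligand more tightly and signals weakly. Tek encodes the angiopoietin receptor TIE2 and Tie1 its partner receptor. Cdh5 encodes the junction protein VE-cadherin, Icam2 an adhesion molecule, Emcn the sialomucin endomucin, Plvap the protein of fenestral diaphragms, and Ehd3 a membrane trafficking protein known as a marker of glomerular endothelium.

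Library totals ran from 11.5 M to 29.6 M counts, with a median of 19.0 M. The 5 libraries of each NOX4 cortex group held 61.2 to 86.8 CPM (counts scaled to a common library total) of Nox4, the targeted gene, against 281 to 604 CPM in SS cortex. In outer medulla Nox4 was low, at 1.65 to 13.6 CPM in NOX4 and 5.44 to 100 CPM in SS, and the strains overlapped. In 11 SS libraries at LS or HS7, 10 or more genes went uncounted although their median in that tissue was between 2 and 5 CPM, and these are called low-complexity libraries. Without them 2 SS LS libraries remain in each tissue, and 3 SS HS7 libraries in cortex and 2 in outer medulla. Fits without them thus also rest on fewer libraries. Library names place all SS libraries before all NOX4 libraries. Within each strain they run from LS to HS7 to HS21, except for NOX4 HS7 cortex replicates 3 and 4, which are numbered last. Neither strain nor diet can thus be told apart from library order. SS HS7 outer medulla replicate 3 had the highest level of proximal tubule S1/S2 markers of its tissue, 7848 CPM summed over 6 genes, where the median of the SS outer medulla libraries was 755 CPM. NOX4 HS7 cortex replicates 3 and 4 had mean log2 CPM of red cell markers of 0.41 and 1.12, against 4.08 to 5.30 in the other 3 libraries of their group. Without both, the cortex calls of the 9 genes between strains and diets were the same, except that Ehd3 was not called between strains at HS7. Each gene was detected in every library, with counts from 152 (Icam2) to 11974 (Plvap). Of 32 other endothelial genes searched, only Cldn5 was at 0 in all 60 libraries. In RNA of whole tissue, fewer endothelial cells and less RNA per cell cannot be told apart.

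The deposited table places the genes at chr14:34727623-34787183 (Kdr), chr12:9034308-9205905 (Flt1), chr5:113725717-113852799 (Tek), chr5:137294532-137321101 (Tie1), chr19:1023683-1074365 (Cdh5), chr10:94569890-94576512 (Icam2), chr2:242634399-242714182 (Emcn), chr16:19906318-19918689 (Plvap) and chr6:25074955-25100977 (Ehd3). All 9 are annotated as protein coding, and the build of these coordinates is not given in the sources used here.

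Upstream sequences of the genes were taken from RefSeq on the GRCr8 assembly, as 250 bases before and 50 bases after the start of each gene; 6 of the 10 listed names had an entry. The sequences of Kdr, Flt1, Emcn and Plvap are shown as examples: Kdr and Plvap differed most between the tissues, and Flt1 and Emcn were lower on high salt in the outer medulla of SS rats. ETS factors such as ERG and FLI1, which bind endothelial promoters, recognise a GGAA core, and the capitals mark the hexamer AGGAAG or, where it lies on the other strand, its reverse complement CTTCCT.
Kdr: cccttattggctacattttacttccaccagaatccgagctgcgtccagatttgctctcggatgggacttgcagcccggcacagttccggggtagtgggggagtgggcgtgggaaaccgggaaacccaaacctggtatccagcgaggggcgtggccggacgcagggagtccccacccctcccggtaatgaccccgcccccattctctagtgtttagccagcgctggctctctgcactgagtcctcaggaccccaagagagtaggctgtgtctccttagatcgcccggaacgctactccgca
Flt1: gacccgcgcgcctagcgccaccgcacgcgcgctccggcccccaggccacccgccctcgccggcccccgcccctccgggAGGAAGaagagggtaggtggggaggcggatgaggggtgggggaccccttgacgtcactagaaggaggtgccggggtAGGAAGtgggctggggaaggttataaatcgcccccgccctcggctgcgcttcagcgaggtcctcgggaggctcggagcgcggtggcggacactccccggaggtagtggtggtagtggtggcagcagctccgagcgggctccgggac
Emcn: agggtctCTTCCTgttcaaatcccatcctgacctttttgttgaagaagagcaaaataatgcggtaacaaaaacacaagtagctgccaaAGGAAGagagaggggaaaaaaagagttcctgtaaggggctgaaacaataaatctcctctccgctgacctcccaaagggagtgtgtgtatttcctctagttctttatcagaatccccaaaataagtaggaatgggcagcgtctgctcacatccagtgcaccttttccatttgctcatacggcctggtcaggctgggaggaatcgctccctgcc
Plvap: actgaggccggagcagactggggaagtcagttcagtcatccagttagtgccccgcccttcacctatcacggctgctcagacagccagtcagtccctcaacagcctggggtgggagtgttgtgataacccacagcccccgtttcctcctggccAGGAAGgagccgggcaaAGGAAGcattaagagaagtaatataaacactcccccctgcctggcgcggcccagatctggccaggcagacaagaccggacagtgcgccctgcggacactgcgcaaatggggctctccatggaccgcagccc
They lie at chr14:32571813-32572112 on the plus strand for Kdr, at chr12:12333180-12333479 on the plus strand for Flt1, at chr2:228564289-228564588 on the plus strand for Emcn, and at chr16:18231230-18231529 on the minus strand for Plvap. AGGAAG on either strand was found 2 times each in the Flt1, Emcn and Plvap sequences and 0 times in that of Kdr. The Tie1 sequence, not shown, held it 1 time. The GGAA core alone was not marked, and it also occurs in the Kdr sequence. The entry of Ehd3 lies on the other strand than its row of the deposited table and was not used. The hexamer or its relative CGGAAG occurred on either strand in 45.9% of all 27457 promoters of the same length, and in 4 of these 5. TATAAA on either strand was present in the Flt1 and Plvap sequences and in 14.3% of all promoters. These are letter matches and say nothing of binding.

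Per unit of gene length, as deposited FPKM, Plvap was the most abundant of the 9 genes in both tissues. In cortex its mean over 30 libraries was 73.9 FPKM ± 13.9 (SD), followed by Emcn at 39.3 ± 5.28, Tie1 at 26.1 ± 3.92, Ehd3 at 24.1 ± 5.77 and Kdr at 18.8 ± 2.73. Tek (13.5 ± 1.73), Icam2 (12.6 ± 2.28), Flt1 (11.8 ± 1.51) and Cdh5 (9.68 ± 1.56) were lower. Tie1 and Ehd3, Tek and Icam2, and Icam2 and Flt1, neighbours in this order, differed by less than either SD. In outer medulla Plvap stood at 153 ± 32.4 FPKM, Emcn at 56.7 ± 11.1 and Tie1 at 31.2 ± 4.14, and Kdr was the least abundant at 7.95 ± 1.88. The place of Kdr in the order thus moved from the fifth in cortex to the last in outer medulla. Flt1, at 8.90 ± 1.88 FPKM there, differed from Kdr by less than either SD. All further levels are CPM, scaled by the trimmed mean of M-values (TMM) over all 60 libraries, and all differences are log2 fold changes with their SE.

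**Figure D1:**
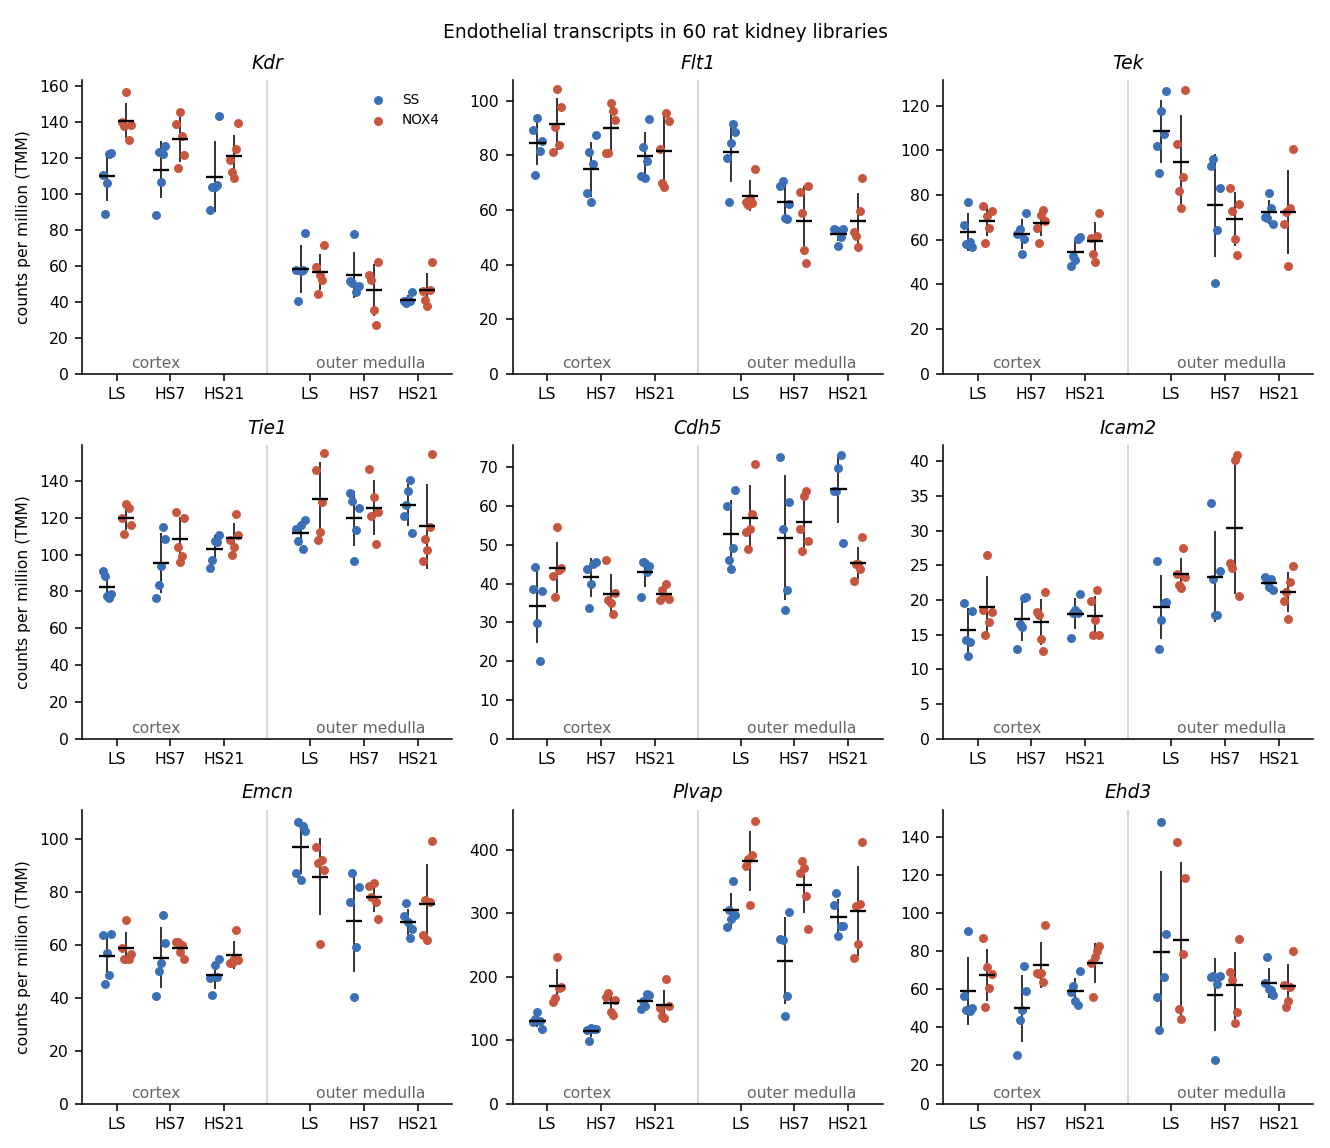
CPM of each of the 9 genes (y axis, from 0) in every library, by diet (x axis) and tissue, for SS and NOX4 rats. Points are libraries, 5 a group, the short bar is the group mean and the vertical line its SD; Kdr is at least 88.3 CPM in cortex and at most 77.9 CPM in outer medulla, and Plvap is higher in outer medulla in every strain and diet.

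The receptor for VEGF and the diaphragm protein differed most between the tissues, in opposite directions. Averaged over the 6 strain and diet groups, 6 of the 9 genes were higher in outer medulla and 2 were lower (edgeR's quasi-likelihood test, adjusted p under 0.05), where 71.6% of all 16326 genes tested were called in either direction. The median difference of the 9 was 0.36, and that of all genes was 0.03. A share of 8 in 9 stands near that high background.

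Kdr showed the largest difference. In SS LS cortex its 5 libraries held 110.2, 88.8, 105.9, 121.8 and 122.6 CPM, and in SS LS outer medulla 57.4, 40.7, 56.9, 57.8 and 77.9. In NOX4 LS cortex they held 139.8, 137.8, 156.5, 129.9 and 138.0 CPM, and in NOX4 LS outer medulla 59.5, 44.3, 54.9, 52.1 and 71.7. Every cortex library was above every outer medulla library, and this held in all 6 strain and diet groups. In such a pair of groups 16.1% to 49.8% of all genes did not overlap. The log2 difference of Kdr averaged over groups was -1.27 ± 0.07 (adjusted p = 3.5e-24, edgeR). Flt1, the other VEGF receptor, was lower too. Its average difference was -0.45 ± 0.05 (adjusted p = 6.7e-12, edgeR), and its groups did not overlap in 3 of the 6 pairs, near the highest of those shares. At LS Flt1 was called lower in outer medulla of NOX4 rats (-0.50 ± 0.12, adjusted p = 0.00057, edgeR), while in SS rats the value was -0.06 ± 0.12 (adjusted p = 0.72). The difference between those 2 values was not tested.

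Plvap had the opposite direction. Its SS LS cortex libraries held 128.5, 132.6, 144.4, 130.5 and 118.0 CPM, and the SS LS outer medulla libraries 278.1, 305.2, 290.9, 351.1 and 296.4. In NOX4 the LS cortex libraries held 160.2, 166.2, 230.3, 182.6 and 183.6 CPM, against 374.8, 385.0, 312.7, 391.5 and 445.0 in outer medulla. The lowest outer medulla library was above the highest cortex library in each of the 6 strain and diet groups. In such a pair of groups 16.1% to 49.8% of all genes did not overlap. Plvap was 1.03 ± 0.06 higher in outer medulla on the log2 scale (adjusted p = 9.3e-23, edgeR).

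Genes with smaller differences between tissues were those of junctions, the capillary surface and the angiopoietin receptors. Emcn was higher in outer medulla by 0.49 ± 0.06 (adjusted p = 5.3e-11), Cdh5 by 0.45 ± 0.06 (adjusted p = 6.1e-09) and Icam2 by 0.40 ± 0.07 (adjusted p = 2.5e-06, all edgeR). Tek was higher by 0.36 ± 0.06 (adjusted p = 1.1e-06, edgeR) and Tie1 by 0.24 ± 0.04 (adjusted p = 4.5e-06, edgeR). Groups without overlap numbered 3 of 6 for Emcn and Cdh5, 2 of 6 for Tek and Tie1, and 1 of 6 for Icam2, where between 16.1% and 49.8% of all genes did not overlap in a pair. Ehd3, known elsewhere as a marker of glomerular endothelium, gave 0.09 ± 0.11 (adjusted p = 0.48), with overlap in all 6 pairs. Its outer medulla levels were wide: the SS LS libraries held 56.0, 38.55, 147.65, 66.5 and 88.9 CPM, and the NOX4 LS libraries 137.1, 49.6, 44.5, 78.4 and 118.5.

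**Figure D2:**
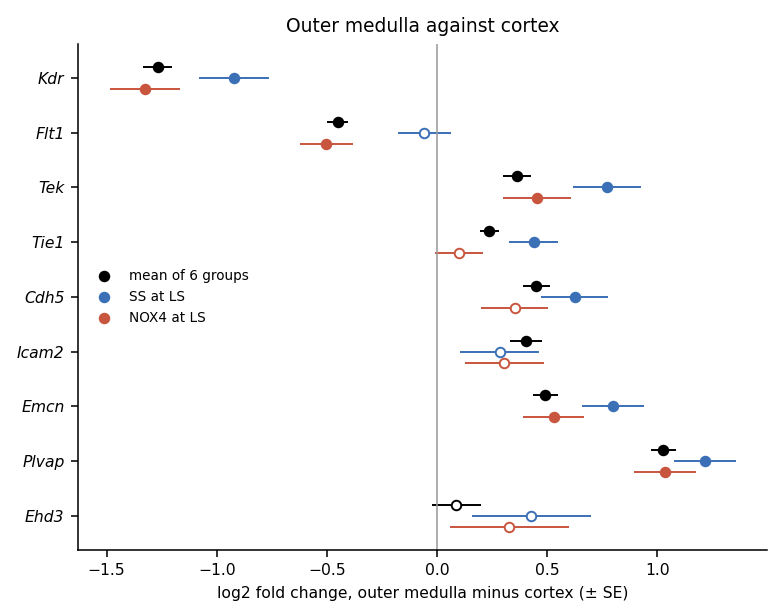
Log2 fold change of outer medulla against cortex (x axis, ± SE) for each gene (y axis), averaged over the 6 strain and diet groups and at LS in each strain; filled points have an adjusted p under 0.05. Kdr lies at -1.27 and Plvap at 1.03 in the average over groups, and Ehd3 is open in all 3 comparisons.

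Within LS alone, 6 of the 9 genes were called between tissues in SS rats (background 53.7%) and 5 in NOX4 rats (background 38.1%). In SS the higher genes were Plvap, Emcn, Tek, Cdh5 and Tie1, and Kdr was lower. Tie1 (0.44 ± 0.11, adjusted p = 0.00065, edgeR) was no longer called in SS without the low-complexity libraries (0.35, adjusted p = 0.092). In NOX4 the higher genes were Plvap, Emcn and Tek, and Kdr and Flt1 were lower. The Tek call in NOX4 (0.46 ± 0.15, adjusted p = 0.016, edgeR) was lost when libraries numbered 1 (0.46, adjusted p = 0.056), 4 (0.47, adjusted p = 0.054) or 5 (0.35, adjusted p = 0.11) were left out.

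Most other endothelial genes were higher in outer medulla, where the background of all genes called in either direction was 71.6%. A list whose called share stands near that background does not stand out from all genes. Of 30 tested, 23 were higher in outer medulla and 2 lower, with a median of 0.57. They included Esam, a tight junction molecule (1.35 ± 0.07), Mmrn2, an endothelial matrix protein (1.03 ± 0.06), and Jam2, a junction molecule (0.90 ± 0.06). Of 6 glomerular endothelial genes, 5 were lower and 1 higher, with a median of -1.33. Gata5, a transcription factor, was lower by 3.28 on the log2 scale (SE 0.23), and Sost, a secreted Wnt antagonist, by 4.07 (SE 0.37), while Tbx3, a transcription factor, was the exception at 1.13 ± 0.12. Of 11 podocyte genes 8 were lower and 1 higher, with sums of 638 to 1184 CPM in cortex and 267 to 454 CPM in outer medulla. Their part in the Kdr and Flt1 values was not tested. Angpt2, the context-dependent ligand of TIE2, was higher by 2.52 ± 0.11, and Angpt1, its activating ligand, lower by 1.21 on the log2 scale (SE 0.12). Of 13 leukocyte genes, 13 were higher, and of 12 pericyte and smooth muscle genes 9 were.

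In cortex Plvap, Tie1, Kdr and Ehd3 were higher in NOX4 than in SS rats. Averaged over the 3 diets, 4 of 9 genes were called higher and 0 lower (background 31.7% of 15179 genes in either direction, a share not far from that of the 9), and all 9 log2 values were above 0, with a median of 0.15 against 0.00 for all genes. The called genes were Plvap (0.31 ± 0.05, adjusted p = 0.0001), Tie1 (0.28 ± 0.05, adjusted p = 0.00024), Kdr (0.24 ± 0.06, adjusted p = 0.0041) and Ehd3 (0.36 ± 0.11, adjusted p = 0.014), all by edgeR. Each of the 4 was called again when any 1 of the 30 cortex libraries was left out. Flt1 (0.15 ± 0.06, adjusted p = 0.062), Emcn (0.13), Tek (0.12), Icam2 (0.08) and Cdh5 (0.01) did not pass.

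The strain difference was clearest at LS, where 3 of 9 genes were called higher in NOX4 (background 22.0%). The Plvap libraries given above ran from 118 to 144 CPM in SS and from 160 to 230 in NOX4, without overlap, a difference of 0.49 ± 0.10 (adjusted p = 0.00061, edgeR). Of 13743 genes, 17.1% did not overlap between these groups. Tie1 held 91.2, 88.2, 77.5, 76.2 and 78.7 CPM in SS and 119.9, 111.3, 127.2, 125.5 and 116.0 in NOX4. These did not overlap either, and Tie1 differed by 0.54 ± 0.09 (adjusted p = 0.00024, edgeR). Kdr, also without overlap, differed by 0.35 ± 0.11 (adjusted p = 0.019, edgeR), a call lost without SS LS replicate 2 (0.29, adjusted p = 0.063) or NOX4 LS replicate 3 (0.32, adjusted p = 0.052). It was also lost without the low-complexity libraries (0.27, adjusted p = 0.19), a fit that keeps 2 SS LS libraries. With the mean level of S3 proximal tubule markers as a covariate none of the 3 was called (Plvap 0.45, adjusted p = 0.092; Tie1 0.30, adjusted p = 0.17; Kdr 0.17, adjusted p = 0.60). Cdh5 libraries overlapped, at 38.5, 44.3, 29.9, 20.1 and 38.0 CPM in SS against 42.1, 36.5, 54.6, 43.5 and 44.0 in NOX4 (0.37 ± 0.14, adjusted p = 0.052).

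At HS7 in cortex 2 of 9 were called higher in NOX4 (background 17.4%). Plvap held 116.7, 98.4, 118.3, 117.4 and 117.6 CPM in SS and 167.6, 175.0, 144.8, 139.0 and 163.6 in NOX4. The groups did not overlap, where 7.85% of 13744 genes did not. The Plvap difference was 0.49 ± 0.10 (adjusted p = 0.0012, edgeR), or 0.50 (adjusted p = 0.058) with the mean podocyte level as a covariate. That level did not overlap between these groups, at 5.28 to 5.575 log2 CPM in SS and 5.61 to 6.19 in NOX4. The fit with it thus does not separate strain from composition. Ehd3 held 25.4, 43.6, 49.1, 72.3 and 59.1 CPM in SS and 68.3, 68.1, 68.5, 63.9 and 93.8 in NOX4, with overlap. Its call (0.55 ± 0.19, adjusted p = 0.047, edgeR) was kept in 2 of the 10 fits that left out a library, those without SS replicate 4 or 5, and in 4 of 11 other settings, with adjusted p from 0.019 to 0.22. Without SS replicate 1, the lowest, it was 0.39 (adjusted p = 0.13), and without NOX4 replicate 5, the highest, 0.45 (adjusted p = 0.13).

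At HS21 in cortex 0 of 9 were called (background 1.00%), with 0 at an unadjusted p under 0.05 by edgeR and 0 called by DESeq2 or limma. Plvap held 148.7, 161.9, 153.9, 172.5 and 171.2 CPM in SS and 150.2, 137.6, 135.0, 197.0 and 153.9 in NOX4, with a difference of -0.06 ± 0.09 (adjusted p = 0.94). The Plvap libraries of the strains thus overlapped at HS21, unlike at LS and HS7.

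**Figure D3:**
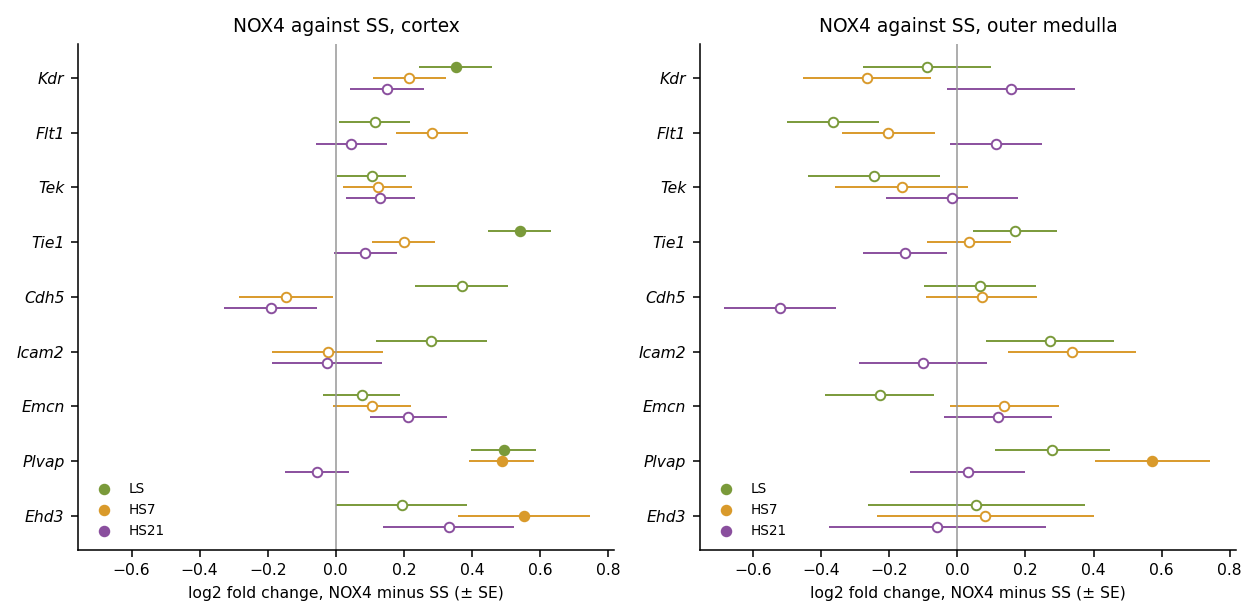
Log2 fold change of NOX4 against SS (x axis, ± SE) for each gene (y axis) at LS, HS7 and HS21, in cortex on the left and outer medulla on the right; filled points have an adjusted p under 0.05. In cortex Plvap is filled at LS and HS7 (both 0.49), and in outer medulla it is the only filled gene, at HS7 (0.57).

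Markers of other cells also differed between the strains in cortex, against a background of 31.7% of all genes called in either direction. Of 11 podocyte genes 8 were higher in NOX4 and 0 lower, with Nphs1 (nephrin) at 0.57 ± 0.09. Their summed level ran from 638 to 910 CPM in SS and from 809 to 1184 CPM in NOX4, and 0 were at 0 throughout. Of 9 markers of the S3 proximal tubule, 6 were lower in NOX4 and 0 higher, with sums of 1883 to 6222 CPM in SS and 1555 to 2987 CPM in NOX4. With the mean S3 level as a covariate, the averages over diets became 0.12 for Kdr (adjusted p = 0.43), 0.12 for Tie1 (adjusted p = 0.31), 0.18 for Ehd3 (adjusted p = 0.55) and 0.28 for Plvap (adjusted p = 0.04). With the mean podocyte level they were 0.11 for Kdr (adjusted p = 0.57), 0.27 for Tie1 (adjusted p = 0.069) and 0.42 for Ehd3 (adjusted p = 0.17), and Plvap was called. These scores differed between the strains themselves, so such fits do not separate strain from composition. The part of tissue composition in the strain difference was otherwise not tested.

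Related lists in cortex did not all point the same way, against the same background of 31.7%, and called shares near it do not stand out. Of 30 other endothelial genes 5 were higher in NOX4 and 2 lower, with a median of 0.05. The higher ones included Rasip1, which stabilises endothelial junctions (0.48 ± 0.09), and Mmrn2 (0.33 ± 0.07). Of 6 glomerular endothelial genes 3 were higher and 0 lower, among them Plat, tissue plasminogen activator (0.30 ± 0.06). Of 7 arterial genes 4 were higher, including the ephrin Efnb2 (0.47 ± 0.07) and the Notch ligand Dll4 (0.55 ± 0.14), and Jag1, another Notch ligand, was lower by 0.91 on the log2 scale (SE 0.16). Of 15 VEGF and angiopoietin genes, 3 were higher and 5 lower. Vegfa was higher by 0.38 ± 0.07 and Vegfb by 0.50 ± 0.05, while the co-receptor Nrp2 was at -0.26 ± 0.07. Of 8 endothelial activation genes 4 were lower and 0 higher, including the adhesion molecules Vcam1 (-0.49 ± 0.09) and Icam1 (-0.18 ± 0.06).

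In outer medulla Plvap was the 1 gene of the 9 called between strains. Averaged over diets it was higher in NOX4 by 0.29 ± 0.10 (adjusted p = 0.024, edgeR; background 30.4% of 15799 genes), and the median of the 9 was 0.01. Without the low-complexity libraries the Plvap value was 0.18 (adjusted p = 0.13), and with the mean S3 level as a covariate it was 0.53 (adjusted p = 0.0025). At HS7, where 1 of 9 was called (background 9.61%), its SS libraries held 259.5, 257.8, 137.6, 169.4 and 301.1 CPM and its NOX4 libraries 362.7, 382.6, 371.6, 326.6 and 275.5, with overlap. The difference was 0.57 ± 0.17 (adjusted p = 0.034, edgeR). Of the low SS libraries, replicate 3 is the one with the high S1/S2 markers, and both replicates 3 and 4 are low-complexity libraries. Without the low-complexity libraries the value was 0.26 (adjusted p = 0.30), with limma 0.32 (adjusted p = 0.17), and in a fit of these 2 groups alone 0.60 (adjusted p = 0.31). NOX4 replicates 3 and 4 stood apart from the other 3 libraries of their group, with mean log2 CPM of thick ascending limb markers of 7.70 and 7.87 against 8.69 to 9.06, and of leukocyte markers of 4.31 and 4.64 against 3.73 to 3.92. Without both, a setting chosen after seeing the data, the value was 0.56 (adjusted p = 0.20). Leaving out SS replicate 2 (0.64, adjusted p = 0.05046) or 4 (0.48, adjusted p = 0.084), or NOX4 replicate 2 (0.53, adjusted p = 0.054), 3 (0.55, adjusted p = 0.097) or 4 (0.59, adjusted p = 0.075), also ended the call.

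At LS in outer medulla 0 of 9 were called (background 14.8%), with 1 at an unadjusted p under 0.05 by edgeR and 1 called each by DESeq2 and limma. That gene was Flt1, lower in NOX4 by edgeR's estimate of -0.37 ± 0.14 (adjusted p = 0.065) and called by DESeq2 (adjusted p = 0.040) and limma (adjusted p = 0.011). Its SS libraries held 79.1, 63.0, 84.7, 91.5 and 88.5 CPM, and its NOX4 libraries 62.8, 61.7, 64.3, 62.5 and 75.2. At HS21 0 of 9 were called (background 1.63%), with 1 at an unadjusted p under 0.05, 1 called by DESeq2 and 2 by limma. Cdh5 then held 63.9, 63.9, 69.9, 73.0 and 50.5 CPM in SS and 40.6, 45.2, 45.0, 43.7 and 52.1 in NOX4. Only SS replicate 5 reached into the NOX4 range, and the value was -0.52 ± 0.16 (adjusted p = 0.097, edgeR). DESeq2 (-0.52, adjusted p = 0.049), a fit of these 2 groups alone (-0.52, adjusted p = 0.0087) and the fit without the low-complexity libraries (-0.52, adjusted p = 0.0041) called Cdh5.

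Other lists were compared between the strains in outer medulla, against the same background of 30.4%. Of 30 other endothelial genes 2 were higher and 6 lower, with a median of -0.11. Vwf, von Willebrand factor, was higher by 0.93 ± 0.13, and Calcrl, the adrenomedullin receptor, was at -0.70 ± 0.11, with its partner Ramp2 at -0.45 ± 0.10. Of 15 VEGF and angiopoietin genes 1 was higher and 6 lower, among them Angpt1 (-1.02 ± 0.22) and Nrp2 (-0.74 ± 0.15), with Vegfb as the higher one (0.36 ± 0.07). Of 12 pericyte and smooth muscle genes 8 were lower and 0 higher, with sums of 569 to 1157 CPM in SS and 397 to 627 CPM in NOX4. Of 9 S3 markers 6 were higher and 1 lower, with sums of 782 to 7366 CPM in SS and 2141 to 7651 CPM in NOX4. The part of pericytes in the Plvap value was not tested.

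High salt went with lower Flt1, Tek and Emcn in the outer medulla of SS rats at HS21. Of the 9 genes 3 were called lower than at LS and 0 higher (background 9.86%), and the median of the 9 was -0.37, against 0.02 for all genes. That median is the value of Ehd3, and it was -0.097 without SS LS replicate 3 and 0.053 with the mean level of S3 proximal tubule markers as a covariate. Flt1 held 53.1, 52.6, 46.8, 50.2 and 53.1 CPM at HS21, below all 5 LS libraries given above. It fell by 0.70 on the log2 scale (SE 0.14, adjusted p = 0.0017, edgeR), and was called in all 12 other settings and all 10 fits that left out a library, with adjusted p from 2.9e-05 to 0.010 in the settings. Tek held 102.0, 89.9, 117.5, 107.4 and 126.5 CPM at LS and 70.2, 69.9, 80.7, 74.2 and 66.8 at HS21. Emcn held 87.1, 106.2, 84.4, 104.7 and 102.8 CPM at LS and 70.7, 75.6, 68.5, 62.6 and 66.1 at HS21.

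Tek and Emcn, like Flt1, did not overlap between the diets, and nor did 12.7% of 14004 genes with a mean of at least 1 CPM. Tek fell by 0.62 (SE 0.20, adjusted p = 0.041) and Emcn by 0.53 (SE 0.16, adjusted p = 0.034, both edgeR) on the log2 scale. These calls were near the threshold. The Tek call was kept in 2 of 10 fits that left out a library, those without SS LS replicate 1 or 2, with values from -0.66 to -0.56 where it was lost and an adjusted p of at most 0.091. The Emcn call was kept in 3 of 10, those without SS LS replicate 1 or 3 or SS HS21 replicate 2, with an adjusted p of at most 0.093. Without the low-complexity libraries Tek was at -0.56 (adjusted p = 0.093), and with no filter on low counts neither was called (Tek -0.61, adjusted p = 0.061; Emcn -0.52, adjusted p = 0.053). Kdr held 40.3, 39.3, 40.8, 40.3 and 45.4 CPM at HS21, with overlap to LS (-0.53 ± 0.19, adjusted p = 0.072), and was called in 5 of 12 other settings. Tie1 (0.15 ± 0.12), Cdh5 (0.25 ± 0.16) and Icam2 (0.20 ± 0.19) were not called and had positive values.

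The summed level of thick ascending limb markers was lower too. Summed over 7 genes it ran from 13876 to 17939 CPM in SS LS and from 8989 to 12437 CPM in SS HS21 outer medulla, without overlap, and was made up mostly of Umod (uromodulin) and the cotransporter gene Slc12a1. Of the 7 genes 1 was called lower, and the mean levels of Cldn19 (181.8 CPM at LS and 190.0 at HS21) and Ptger3 (165.8 and 185.3) had the opposite direction. S3 markers ran from 782 to 2327 CPM at LS and from 871 to 4021 CPM at HS21. With the mean thick limb level as a covariate, Tek was at -0.37 (adjusted p = 0.0998), Emcn at -0.39 (adjusted p = 0.094) and Flt1 was still called. With the mean S3 level, Tek was at -0.43 (adjusted p = 0.083) and Emcn at -0.39 (adjusted p = 0.054). The mean thick limb level did not overlap between these diets, at 9.04 to 9.26 log2 CPM at LS and 8.56 to 8.94 at HS21. The fit with it thus does not separate diet from composition. Any part of these tubule segments in the values was not tested. In the same comparison (background 9.86%) 3 pericyte and smooth muscle genes of 12 were higher and 0 lower, with the actin Acta2 at 1.77 ± 0.27. Of 15 VEGF and angiopoietin genes 1 was lower, Vegfa (-0.53 ± 0.17, adjusted p = 0.0496, edgeR), and of 30 other endothelial genes 1 was lower, Cyyr1 (-0.69 ± 0.21).

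At HS7 in SS outer medulla 0 of 9 were called (background 2.37%), with 4 at an unadjusted p under 0.05 by edgeR, 1 called by DESeq2 and 0 by limma. The 4 were Emcn (-0.51 ± 0.16, adjusted p = 0.071), Flt1 (-0.39 ± 0.14, adjusted p = 0.094), Tek (-0.54 ± 0.20, adjusted p = 0.10) and Plvap (-0.45 ± 0.17, adjusted p = 0.11). Both salt times are set against the same LS libraries, so that these values are not independent of those at HS21. SS HS7 replicate 3 had the lowest Tek (40.7 CPM), Emcn (40.4), Plvap (137.6), Ehd3 (22.9), Cdh5 (33.2) and Tie1 (96.5) of its group and the highest Kdr (77.4).

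**Figure D4:**
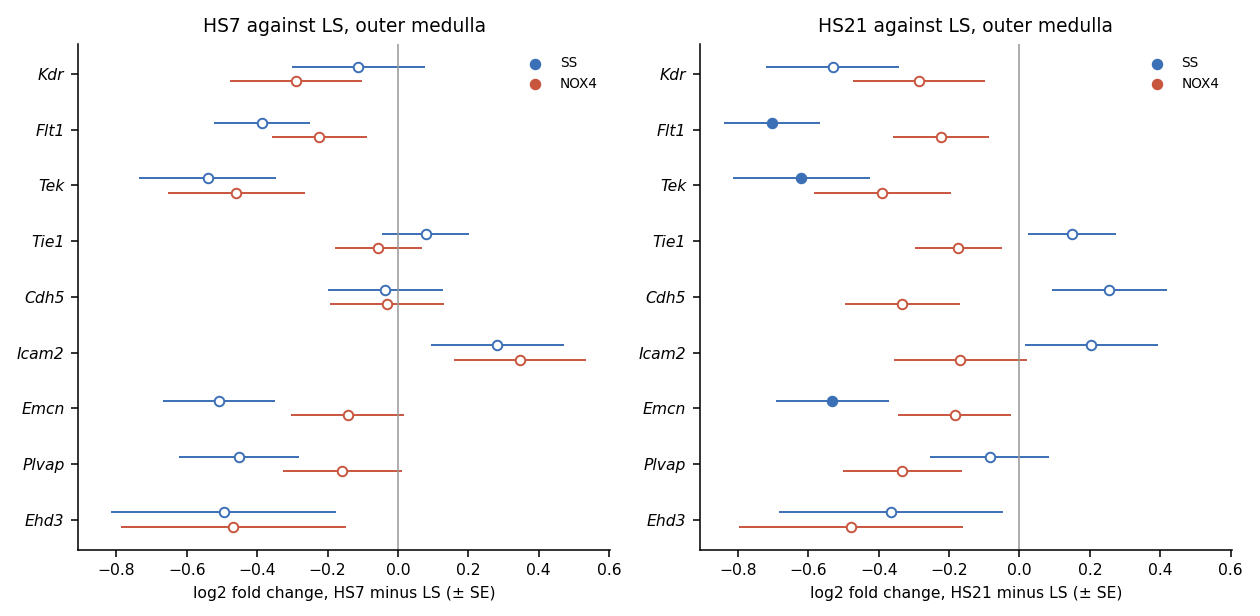
Log2 fold change against LS in outer medulla (x axis, ± SE) for each gene (y axis), at HS7 on the left and HS21 on the right, in SS and NOX4 rats; filled points have an adjusted p under 0.05. At HS21 Flt1 (-0.70), Tek (-0.62) and Emcn (-0.53) are filled in SS, and no gene is filled in NOX4.

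NOX4 rats gave no call on high salt in either tissue. At both times 0 of 9 genes were called in NOX4 outer medulla (background 0% at HS7 and 0% at HS21) and 0 of 9 in NOX4 cortex (background 0% at HS7 and 0% at HS21). By edgeR 1 of 9 was at an unadjusted p under 0.05 at HS7 and 0 at HS21 in outer medulla, and 1 at HS7 and 2 at HS21 in cortex. DESeq2 and limma called 0 of the 9 in each. Over all genes edgeR had 2162 at an unadjusted p under 0.05 at HS7 and 249 at HS21 in outer medulla, and 782 and 236 in cortex. DESeq2 called 129 and 5 genes in outer medulla and 6 and 7 in cortex, and limma 2 and 5, and 1 and 115. Flt1 in NOX4 outer medulla held 51.8, 50.4, 46.4, 59.6 and 71.8 CPM at HS21, overlapping its LS libraries, with a value of -0.22 ± 0.14. The salt responses of the strains in outer medulla were compared directly by an interaction term, in which 0 of 9 were called at HS7 (background 0%) and 0 of 9 at HS21 (background 0.0253%). At HS7 0 of the 9 were at an unadjusted p under 0.05, and 0 were called by DESeq2 or limma. At HS21 2 were at an unadjusted p under 0.05, and 0 were called by DESeq2 and 2 by limma. These 2 were Flt1 (0.48 ± 0.19 by edgeR, adjusted p = 0.41) and Cdh5 (-0.59 ± 0.23, adjusted p = 0.40), so by edgeR the fall of Flt1 was not shown to differ between strains.

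In SS cortex Plvap and Tie1 were higher at HS21 than at LS. Of the 9 genes 2 were called higher than at LS and 0 lower (background 16.5%). Plvap rose by 0.29 ± 0.10 (adjusted p = 0.036, edgeR), with no overlap between the libraries given above. Between these groups 14.5% of 13843 genes did not overlap. Tie1 held 92.5, 97.3, 107.5, 106.6 and 110.6 CPM at HS21, above all 5 LS libraries, and rose by 0.31 ± 0.09 (adjusted p = 0.023, edgeR). The Tie1 call was kept in 4 of 10 fits that left out a library, those without SS LS replicate 1 or 2 or SS HS21 replicate 1 or 2, with an adjusted p of at most 0.059 otherwise. The Plvap call was kept in 2 of 10, those without SS LS replicate 3 or SS HS21 replicate 1, with an adjusted p of at most 0.097. Without the low-complexity libraries neither was called (Plvap 0.38, adjusted p = 0.086, and Tie1 0.26, adjusted p = 0.14), nor with the mean S3 level as a covariate (0.27, adjusted p = 0.098, and 0.19, adjusted p = 0.16). The former fit kept 2 SS LS libraries. S3 markers summed to 3832 to 6222 CPM at LS and 1883 to 3464 CPM at HS21. Of 11 leukocyte genes 6 were higher in this comparison and 0 lower, with sums of 360 to 464 CPM at LS and 496 to 762 CPM at HS21, and their part in the values was not tested. Of 8 endothelial activation genes 3 were higher, among them Icam1 (0.61 ± 0.11). At HS7 0 of 9 were called (background 2.25%), with 2 at an unadjusted p under 0.05, Tie1 and Plvap, and 0 called by DESeq2 or limma.

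The salt response of Plvap in cortex differed between the strains at HS21. Of 9 interaction terms 1 was called (background 1.08%), that of Plvap at -0.55 ± 0.13 (adjusted p = 0.040, edgeR). Its level went from 130.8 ± 9.43 to 161.6 ± 10.4 CPM in SS (mean ± SD, n = 5) and from 184.6 ± 27.5 to 154.8 ± 25.0 CPM in NOX4 (n = 5). Within NOX4 that change was -0.26 ± 0.09 and did not pass. The interaction was called in 6 of 20 fits that left out a library, those without SS LS replicate 1 or 3, SS HS21 replicate 1, NOX4 LS replicate 1 or 2 or NOX4 HS21 replicate 4. In the other 14 it ran from -0.57 to -0.47, with adjusted p from 0.05051 to 0.084. It was not called with a replicate block, without the low-complexity libraries (-0.64, adjusted p = 0.081) or with the mean S3 level as a covariate (-0.53, adjusted p = 0.079). Without the low-complexity libraries 2 SS LS libraries were left. DESeq2 and limma called Plvap and also Tie1, whose edgeR value was -0.45 ± 0.13 (adjusted p = 0.078). At HS7 0 of 9 interactions were called in cortex (background 0.0132%), with 2 at an unadjusted p under 0.05, Cdh5 and Tie1, and 0 called by DESeq2 or limma.

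Tek and Tie1, partner receptors, did not keep a fixed ratio. This comparison was chosen after the values were seen and is given without a test. Within each library the log2 CPM of Tie1 was subtracted from that of Tek. In SS LS outer medulla the mean was -0.05 ± 0.15 (SD, n = 5), with libraries from -0.25 to 0.09. In SS HS21 outer medulla the mean was -0.81 ± 0.08, from -0.92 to -0.73, so that these groups did not overlap. In NOX4 outer medulla the means were -0.47 ± 0.12 at LS, -0.87 ± 0.18 at HS7 and -0.69 ± 0.23 at HS21. In cortex the mean was -0.38 ± 0.22 in SS LS and -0.81 ± 0.13 in NOX4 LS, and it was -0.91 ± 0.10 in SS HS21. Without low-complexity libraries the SS LS means, over 2 libraries each, were -0.46 in cortex and -0.05 in outer medulla. The SS HS7 means were -0.60 in cortex and -0.72 in outer medulla, and the NOX4 cortex means were -0.68 at HS7 and -0.87 at HS21. By group means Tek thus stood nearest to Tie1 in SS rats at LS in both tissues. In cortex the SS LS libraries, from -0.60 to -0.01, overlapped those of SS HS7 (-0.93 to -0.29) and NOX4 HS7 (-0.91 to -0.43).

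**Figure D5:**
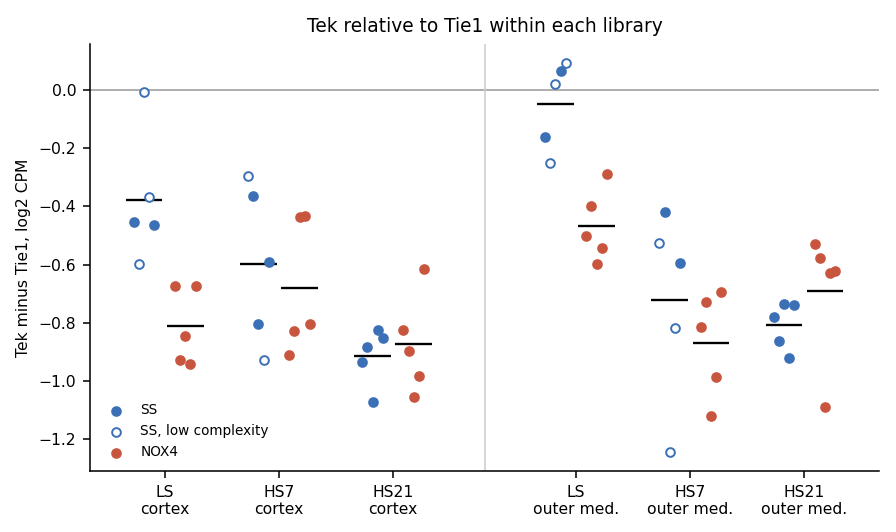
Difference of Tek and Tie1 within each library in log2 CPM (y axis) by diet and tissue (x axis), for SS and NOX4 rats; points are libraries, 5 a group, open points are low-complexity libraries and the bar is the group mean. The SS LS outer medulla libraries lie between -0.25 and 0.09, above all 5 SS HS21 outer medulla libraries.

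Ehd3 was set against Plvap inside each library. Podocyte genes summed to 267 to 454 CPM in outer medulla and 638 to 1184 CPM in cortex. Whether Ehd3 marks glomerular endothelium in outer medulla was not tested. The log2 CPM of Ehd3 minus that of Plvap had a mean of -1.19 ± 0.31 (SD, n = 5) in SS LS cortex and -1.46 ± 0.34 in NOX4 LS cortex. At HS21 the cortex means were -1.46 ± 0.18 in SS and -1.06 ± 0.22 in NOX4. That last difference had the smallest p of the 14 strain and salt comparisons, 0.0159 by a 2-sided exact permutation test and 0.222 after adjustment over the 14. In outer medulla the 6 group means ran from -2.50 to -2.02. None of the 14 passed adjustment.

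Over single libraries the genes rose and fell together to different degrees. Each library's deviation from its group mean was correlated with the mean deviation of the other 8 genes over 60 libraries, which share their depth and tissue composition within a library. Pearson's r was 0.80 for Tie1, 0.77 for Tek, 0.68 for Emcn, 0.63 for Plvap, 0.61 for Flt1, 0.60 for Ehd3, 0.47 for Cdh5, 0.42 for Icam2 and 0.29 for Kdr. Kdr had the lowest r over all 60 libraries and in outer medulla, but not in cortex. In cortex (30 libraries) its r was 0.52, against 0.30 for Cdh5, 0.42 for Tek and 0.47 for Plvap. In outer medulla (30 libraries) Kdr had r = 0.20 with the others, 0.51 with the podocyte genes and -0.61 with the leukocyte genes. Tek there had r = 0.91 with the others and 0.76 with the thick ascending limb genes. For Ehd3, r with the podocyte genes was -0.02 in cortex and 0.01 in outer medulla. With the thick ascending limb genes it was 0.02 in cortex and 0.57 in outer medulla. SS HS7 outer medulla replicate 3 had the highest Kdr and podocyte level of its group (mean log2 CPM 4.38). Its Tek, leukocyte level (2.96) and thick limb level (8.06) were the lowest of the group. NOX4 HS7 outer medulla replicates 3 and 4 also stood apart in these lists. The r values of this paragraph were not recomputed without such libraries.

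For a search of all genes, the deviations of the 9 were first scaled to equal SD and then averaged. Candidates were the 12817 genes with a symbol and a mean of at least 1 CPM. The 8 whose deviations were most like that mean were Ppap2b (r = 0.84 over 60 libraries), Cd34 (0.79), Stk39 (0.78), Esam (0.78), Ppap2a (0.78), Tmem204 (0.78), Pls3 (0.76) and Tspan7 (0.76). Cd34 and Esam were on the list of other endothelial genes. Without NOX4 HS21 outer medulla replicate 5 and SS HS7 outer medulla replicate 3, the libraries farthest out, r was 0.69 to 0.79 for these 8.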

How the data were processed

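Frozen kidney tissue gave poly(A)-selected RNA libraries, per the labels' protocols. Per the submitters' processing notes, the tools were HISAT2 2.0.5, StringTie 1.3.3b and featureCounts 1.5.0-p3; the genome build is not given in the sources used here. Per the file headers, the deposited table holds a raw count and an FPKM per gene and library, which were used as deposited, and gene symbols were taken from it. It also holds log2 fold changes, p-values and adjusted p-values of the authors' own comparisons; per the file headers, these were made by the authors with a tool not given in the sources used here, and none is printed.

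The test on counts was that of edgeR 4.0.16, in R 4.3.3: TMM scaling, filterByExpr by group, 1 coefficient per group, and a quasi-likelihood F test over the 30 libraries of a tissue (15179 genes in cortex, 15799 in outer medulla) or all 60 (16326). P-values were adjusted by Benjamini-Hochberg over all genes of a comparison, and a call is an adjusted p under 0.05. SE is the log2 fold change over the square root of F. Levels in CPM use 1 TMM scaling of all 60 libraries, and log2 CPM has a prior count of 2. The script was tested on simulated counts with 200 changed genes. Reads carry no molecular identifiers, so that counts hold amplified copies, and strandedness is not given; of the 9 genes only Tek overlaps another gene of the table, a pseudogene with at most 2 counts.

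The named genes are all members, up to 4 genes of each list with the smallest p in the comparison described, and the 8 most alike genes. The members and lists were chosen with earlier results of these data known. Within groups no libraries were duplicates, and pairs across groups were not checked for this. Alternatives were DESeq2 1.42.0, its size factors in edgeR, limma 3.58.1 with voom quality weights, other filters, fits of the compared groups alone, a replicate block, libraries left out, and S3, podocyte or thick limb scores (mean log2 CPM of the list) as covariates. The thick limb score and 2 sets of left-out outer medulla libraries were added after seeing the data. Ackr1, Hba-a2, Hba-a3 and Pecam1 were among the listed names not analysed here.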

Additional observations from a re-analysis of the deposited data

Results flagged for a closer look

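Of 108 groups of 5 libraries (9 genes in 12 groups), 11 held a library whose gap to its nearest neighbour exceeded 0.71 of the group's range, the 95% limit of Dixon's test; chance gives about 1 in 20. SS HS7 outer medulla replicate 3 stood apart in 2 of them, with Kdr high at 77.4 CPM (others 45.3 to 51.5) and Ehd3 low at 22.9 CPM (others 62.6 to 66.8). In SS HS21, Cdh5 was low in cortex replicate 1 (36.5 CPM, others 42.9 to 45.5), and Kdr was high in cortex replicate 5 (143 CPM, others 90.9 to 105) and in outer medulla replicate 5 (45.4 CPM, others 39.3 to 40.8). Ehd3 was high in SS LS cortex replicate 3 (90.3 CPM, others 48.7 to 56.4) and in NOX4 HS7 cortex replicate 5 (93.8 CPM, others 63.9 to 68.5). Plvap was low in SS HS7 cortex replicate 2 (98.4 CPM, others 117 to 118). In NOX4, Emcn was high in HS21 cortex replicate 4 (65.5 CPM, others 53.0 to 54.8) and low in LS outer medulla replicate 3 (60.2 CPM, others 88.2 to 97.0), and Flt1 was high in LS outer medulla replicate 5 (75.2 CPM, others 61.7 to 64.3).

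The change of Plvap from LS to HS21 in cortex differed between NOX4 and SS by -0.55 on the log2 scale (edgeR interaction term, adjusted p = 0.040). The call was lost in 14 of 20 fits that left out a library.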

How the results depend on the processing

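The median log2 fold change of the 9 genes was recomputed under 10 to 12 settings and with each library left out. It moved by less than the spread between replicates except as follows. For HS21 against LS in SS outer medulla (-0.37) it was 0.053 with the S3 score as a covariate, a reversed direction, and -0.00862 with limma voom, -0.13 without the low-complexity libraries and -0.090 with the thick limb score. The S3 score also moved strain in outer medulla at LS from 0.06 to 0.35 and at HS21 from -0.02 to 0.19, and the interaction at HS21 from -0.11 to -0.31. The thick limb score moved HS7 against LS in NOX4 outer medulla from -0.16 to 0.15 and the interaction at HS7 from 0.06 to 0.29. Without the low-complexity libraries the cortex interaction at HS21 went from -0.20 to -0.034. Leaving out 1 library gave -0.080 to 0.11 for HS21 against LS in SS cortex, -0.50 to -0.10 in SS outer medulla, and -0.28 to 0.11 for the outer medulla interaction at HS21. The cause of these shifts was not tested.

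The labels do not say whether same-numbered cortex and outer medulla libraries came from the same rat. Such libraries correlated at -0.20 to 0.21, with 5 of 30 pairs over 0.1. These values cannot decide it, because the tissues of a rat can vary separately. A replicate block gave a median of 0.15 for strain averaged over diets in cortex and ended the call of the Plvap interaction (adjusted p = 0.055), and it added Flt1 at HS7 in cortex (0.28, adjusted p = 0.048). It changed no other call of the 9 genes.

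Counts of called genes differed from the main ones by over 1.5 times in these settings. Strain averaged over diets in cortex gave 4, but 1 with the S3 or the podocyte score; at LS it gave 3, but 0 with the S3 score; at HS7 it gave 2, but 1 in 6 settings and 0 with the podocyte score. HS21 against LS in SS gave 3 in outer medulla, but 1 without a filter or with the S3 or thick limb score, and 2 in cortex, but 1 (Emcn) without the low-complexity libraries and 0 with the S3 score. The cortex interaction at HS21 gave 1, but 2 in 4 settings and 0 in 3. Strain in outer medulla gave 1 averaged over diets, but 2 with limma and 0 without the low-complexity libraries; 0 at LS, but 1 in 6 settings; 1 at HS7, but 0 in 4; and 0 at HS21, but 1 in 5 and 2 with limma. In outer medulla, HS7 against LS in SS gave 0, but 1 with DESeq2 and 1 without NOX4 HS7 replicates 3 and 4, and the interaction at HS21 gave 0, but 2 with limma. Tissue calls averaged over groups stayed at 8 in every setting. For Ehd3 minus Plvap, FPKM in place of CPM changed no call.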
